A study of Mus musculus with 4 samples.

Results

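The transcripts of the TGF-beta ligands (Tgfb1, Tgfb2 and Tgfb3), their receptors (Tgfbr1, Tgfbr2 and Tgfbr3) and the latent TGF-beta binding proteins (Ltbp1, Ltbp2, Ltbp3 and Ltbp4) were followed in skeletal muscle labelled as deleted for Nf1. They were taken by name, as 10 of the 32868 gene names measured in each library, and each name had a single row. RNA came from the tibialis anterior, a shin muscle made mostly of fast fibres, of C57BL/6 mice at postnatal day 21, with 2 libraries in each of 2 groups. The Nf1-KO group had the genotype Nf1flox/flox/Myf5+ and the Het group Nf1flox/+/Myf5+, so the controls also carried a floxed Nf1 allele and the Myf5+ element, and no group was wild type. The labels do not say what the Myf5+ element is, and Myf5 itself is a gene of muscle precursors. The labels do not say whether the libraries of a group came from separate animals, so p-values measure the spread between these libraries, which may be technical.

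TGF-beta ligands are made as precursors that are cut by furin and stay folded inside their own propeptide, which keeps them silent. Latent binding proteins tie this complex to fibrillin and fibronectin in the matrix, and integrins, thrombospondin or proteases release the ligand. Free ligand binds the type II receptor, encoded by Tgfbr2, which recruits and phosphorylates the type I receptor, encoded by Tgfbr1, and this in turn phosphorylates Smad2 and Smad3. The type III receptor betaglycan, encoded by Tgfbr3, presents ligand, Tgfb2 above all, to the type II receptor. In muscle the pathway is known for restraining myoblast differentiation and for driving fibrosis.

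The start regions of the family are shown for Tgfb2 and Tgfbr2, whose levels differed most between the genotypes among the members tested, and for Tgfb1, a ligand whose level did not pass the test. Each window holds the 250 bases before the annotated start, from RefSeq on build GRCm38.p6, printed 5′ to 3′ in the direction of the gene. RefSeq gave 12 starts for 8 of the 10 members. Capitals mark matches on either strand to GGGCGG (GC box), CCAAT (the box of that name), TATAAA (core of the TATA box), TGACGTCA (cyclic AMP response element), TGANTCA (AP-1 site), CAGACA (Smad motif) or CACGTG (E-box).
Tgfb2 (chr1:186705990-186706239, minus strand): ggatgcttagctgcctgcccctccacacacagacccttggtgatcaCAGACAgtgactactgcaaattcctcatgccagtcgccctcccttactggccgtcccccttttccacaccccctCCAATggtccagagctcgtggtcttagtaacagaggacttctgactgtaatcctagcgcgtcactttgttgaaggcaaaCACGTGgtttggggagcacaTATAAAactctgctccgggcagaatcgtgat
Tgfbr2 (chr9:116175364-116175613, minus strand): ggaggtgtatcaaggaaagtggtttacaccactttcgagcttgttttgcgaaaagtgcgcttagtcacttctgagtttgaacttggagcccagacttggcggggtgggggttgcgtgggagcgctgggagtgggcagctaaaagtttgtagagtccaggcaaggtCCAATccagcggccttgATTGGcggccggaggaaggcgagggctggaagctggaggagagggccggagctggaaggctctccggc
Tgfb1 (chr7:25686752-25687001, plus strand): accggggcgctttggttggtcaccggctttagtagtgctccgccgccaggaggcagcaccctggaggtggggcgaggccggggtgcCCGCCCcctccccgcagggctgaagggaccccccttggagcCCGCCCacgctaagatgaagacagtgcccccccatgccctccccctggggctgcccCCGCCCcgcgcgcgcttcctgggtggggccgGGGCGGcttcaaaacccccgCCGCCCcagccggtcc

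The Tgfb2 window held a TATA box 26 to 31 bases before the start, an E-box at 46 to 51, a CCAAT box at 126 to 130 and a Smad motif at 199 to 204. Tgfbr2 had no TATA box or GC box in this window and 2 CCAAT boxes, at 81 to 85 and, on the other strand, at 64 to 68. Tgfb1 had 5 GC boxes and no match to the other motifs, with a GC content of 75.2% against 53.6% for Tgfb2 and 58.4% for Tgfbr2. No matches of different motifs overlapped in the 3 windows. Among 32536 windows of this length, 12.3% held a TATA box, 6.04% the E-box, 33.8% a CCAAT box, 33% a GC box, 17% the Smad motif, 6.73% an AP-1 site and 1.56% a cyclic AMP response element. These matches describe letters only and say nothing of which factor is bound.

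Values are RPKM, reads per kilobase of gene length and per unit of sequencing depth, so levels of different genes can be set beside each other. The total depth of a library is not given in the sources used here. In the authors' deposited table the mean normalised read count over the libraries ran from 24.9 for Ltbp2 to 4461 for Ltbp4, and was 351 for Tgfb1. The targeted gene Nf1 stood at 1.09 and 1.01 RPKM in Het and at 0.89 and 0.85 RPKM in Nf1-KO, a fall of the whole-gene signal by 0.18 on the log2 scale (limma adjusted p 0.041). With values as deposited Nf1 did not pass (-0.13, adjusted p 0.094). The muscle fibre marker Acta1 had means of 15867 RPKM in Het and 12411 RPKM in Nf1-KO (log2 fold change -0.45, limma adjusted p 4.1e-06). Ckm had means of 5904 and 5594 RPKM (-0.17, limma adjusted p 2.0e-04). Of the 6 fibre markers read, all tested, 4 were called lower and 2 higher, with a median log2 fold change of -0.23. Of 10690 genes tested, 50.3% passed a limma adjusted p of 0.05 (24.9% higher and 25.4% lower in Nf1-KO). With values as deposited and not scaled between libraries, 66.6% of the called genes were higher against 49.5% with scaling, and the median log2 fold change of all tested genes was 0.07 in place of 0.00.

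Of the 10 members, 9 were abundant enough to be tested and 5 passed: Tgfbr2, Tgfb3 and Ltbp4 were higher and Tgfb2 and Ltbp3 lower in Nf1-KO. A count of 5 in 9 is near the 50.3% of all tested genes, so the number called is no property of the family. Tgfbr2 rose by 0.83 and Tgfb2 fell by 0.58 on the scale of log2(RPKM + 1), which understates changes of low genes. On it 3.19% and 7.4% of all tested genes had a larger absolute change. The median log2 fold change of the 9 was -0.02. After scaling, the libraries of the groups did not overlap for 7 of the 9, against 76.3% of all tested genes. In bulk muscle, more cells of a type and more RNA per cell cannot be told apart.

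**Figure D1:**
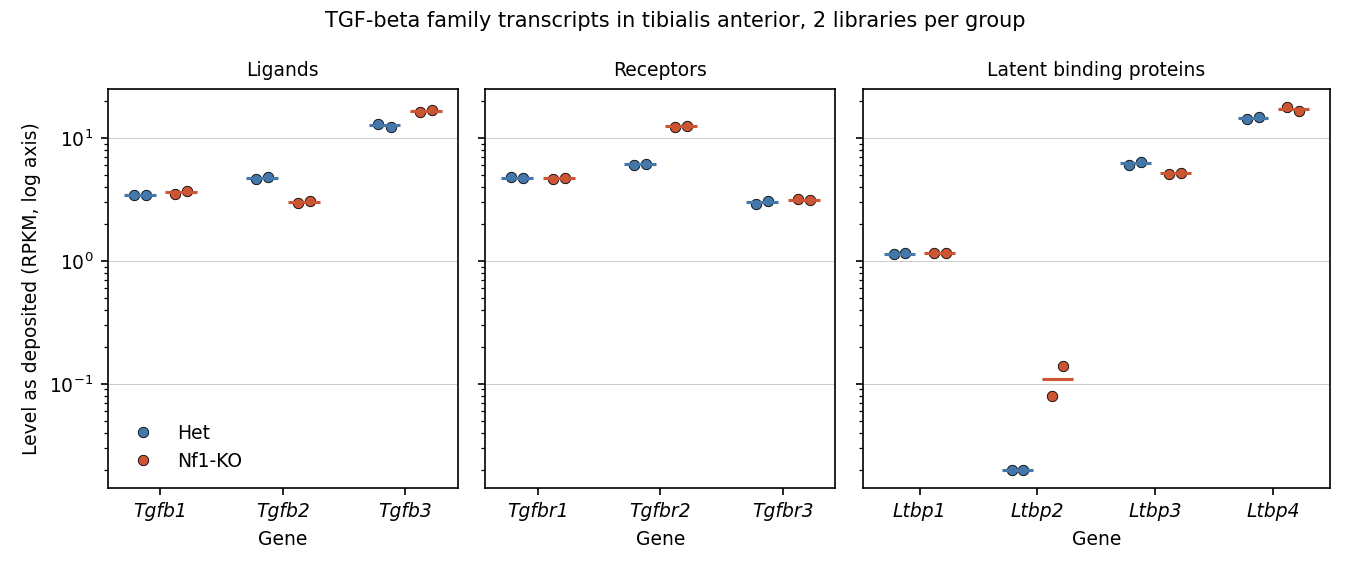
Level of each member in each library (points, RPKM as deposited, log axis) with the group mean (bars), for 2 Het and 2 Nf1-KO libraries. Tgfbr2 stands at 6.08 and 6.2 RPKM in Het and 12.35 and 12.62 RPKM in Nf1-KO, while Tgfbr1 and Tgfbr3 lie at similar heights in both groups.

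Among the ligands, Tgfb3 was the most abundant in every library, and the gap between it and Tgfb2 was wider in Nf1-KO. Tgfb3 (chromosome 12, 86056745 to 86079041, GRCm38) was at 13.06 and 12.31 RPKM in Het and at 16.41 and 16.97 RPKM in Nf1-KO. Both knockout libraries were above both controls. Its means were 12.7 ± 0.53 and 16.7 ± 0.4 RPKM (SD, n = 2), and the scaled log2 fold change was 0.28 (standard error 0.04, limma adjusted p 0.0016). TGF-beta 3 is the isoform known from palate fusion and scarless repair.

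Tgfb2 (chromosome 1, 186622792 to 186705989, GRCm38) moved the other way. It was at 4.61 and 4.8 RPKM in Het and at 2.99 and 3.07 RPKM in Nf1-KO, with no overlap between the groups. From 4.71 ± 0.13 to 3.03 ± 0.057 RPKM (SD, n = 2), Tgfb2 changed by -0.58 on the log2 scale (standard error 0.048, limma adjusted p 1.6e-04). TGF-beta 2 is the isoform that binds the type II receptor poorly without betaglycan.

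Tgfb1, the isoform most tied to fibrosis and immune control, was at 3.46 and 3.45 RPKM in Het and at 3.51 and 3.71 RPKM in Nf1-KO. Its log2 fold change was -0.02 with a 95% interval from -0.14 to 0.09 (limma adjusted p 0.702), and it was 0.05 with values as deposited, where the call also failed. Scaling thus decides the sign of this value. Exons of Tgfb2 and Tgfb3 overlap those of unnamed genes on the opposite strand (Gm29491 for Tgfb2, and Gm37804 and Gm48008 for Tgfb3), and the sources used here do not say if reads were assigned by strand.

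As shares of the summed ligand RPKM, Tgfb3 held 61.8% and 59.9% in Het and 71.6% and 71.5% in Nf1-KO. Tgfb2 held 21.8% and 23.3% against 13.1% and 12.9%. The share of Tgfb1 was 16.4% and 16.8% against 15.3% and 15.6%. The summed ligand level was 20.8 ± 0.4 RPKM in Het and 23.3 ± 0.59 RPKM in Nf1-KO (SD, n = 2). There were thus 2.83 and 2.56 Tgfb3 for each Tgfb2 transcript in Het, per length, and 5.49 and 5.53 in Nf1-KO. These shares and ratios follow from the levels above and were given no test of their own. An exact permutation test of 2 libraries against 2 cannot go below 0.333.

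**Figure D2:**
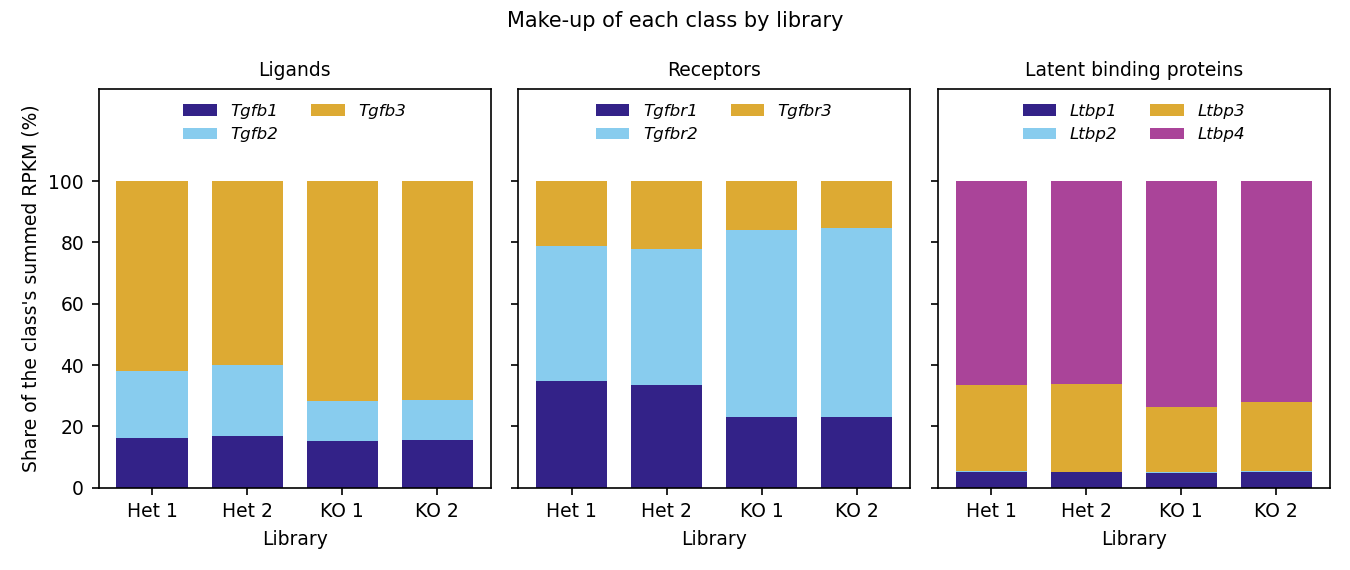
Make-up of the ligands, receptors and latent binding proteins in each of the 4 libraries, as stacked shares (%) of the class's summed RPKM, from Het 1 and 2 to KO 1 and 2. Tgfb3, Tgfbr2 and Ltbp4 each hold a larger share of their class in both Nf1-KO libraries.

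Tgfbr2, which encodes the receptor that binds the ligand first, showed the largest change of the members tested. It lies on chromosome 9, 116084293 to 116175360 (GRCm38), with no exon of another annotated gene over its own. Its level was 6.08 and 6.2 RPKM in Het and 12.35 and 12.62 RPKM in Nf1-KO, and the spread within each group was small beside the gap. Its means were 6.14 ± 0.085 and 12.5 ± 0.19 RPKM (SD, n = 2). The scaled log2(RPKM + 1) rose by 0.83 (standard error 0.037, limma adjusted p 1.2e-05), which is 1.78-fold in RPKM + 1. In the authors' deposited table the ratio for Tgfbr2 was 1.89.

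The other receptors did not pass the test. Tgfbr1, the signalling partner of Tgfbr2, was at 4.83 and 4.69 RPKM in Het and at 4.67 and 4.72 RPKM in Nf1-KO, where the groups overlap as deposited; after scaling both Nf1-KO values were below both Het values. Its log2 fold change was -0.09, with a 95% interval from -0.20 to 0.01 and a limma adjusted p of 0.122. Tgfbr3 was at 2.93 and 3.1 RPKM in Het and at 3.19 and 3.13 RPKM in Nf1-KO. For it the log2 fold change was -0.02 (95% interval -0.14 to 0.10, limma adjusted p 0.769), and the sign again turned with values as deposited (0.05). A rise of the size seen in Tgfbr2 lies outside both intervals.

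The receptors were therefore present in other proportions. Het libraries held 1.26 and 1.32 Tgfbr2 for each Tgfbr1 transcript, per length, and Nf1-KO libraries 2.64 and 2.67. Tgfbr2 made up 43.9% and 44.3% of the summed receptor RPKM in Het and 61.1% and 61.7% in Nf1-KO. The share of Tgfbr1 was 34.9% and 33.5% against 23.1% in each Nf1-KO library, and that of Tgfbr3 was 21.2% and 22.2% against 15.8% and 15.3%. The sum went from 13.9 ± 0.11 to 20.3 ± 0.18 RPKM (SD, n = 2), and nearly all of the gain was Tgfbr2.

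The latent binding proteins split as the ligands did, with 1 higher, 1 lower and 1 that did not pass. Ltbp3, known from bone and tooth development, was at 6.09 and 6.38 RPKM in Het and at 5.1 and 5.22 RPKM in Nf1-KO. All control values were above all knockout values. The means were 6.23 ± 0.21 and 5.16 ± 0.085 RPKM (SD, n = 2), for a log2 fold change of -0.31 (standard error 0.045, limma adjusted p 0.0017). Ltbp3 lies on chromosome 19, 5740904 to 5758532 (GRCm38), and exons are annotated on both strands there, so its value may hold reads of the other strand, which was not tested.

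Ltbp4, a latent binding protein that acts in elastic fibre assembly and whose locus is a known modifier of muscular dystrophy in mice, had the highest mean of the members in both groups, although Tgfb3 was above it in Nf1-KO replicate 2. Its level was 14.25 and 14.77 RPKM in Het and 17.86 and 16.7 RPKM in Nf1-KO. Both Nf1-KO values were higher, though they differed from each other by more than the Het values did. On the log2 scale the difference was 0.15 (standard error 0.043, limma adjusted p 0.029). This call was weak. It was lost without Het replicate 1 (0.12, adjusted p 0.151), without Het replicate 2 (0.17, 0.071), without Nf1-KO replicate 1 (0.11, 0.11), with no filter on low values (0.15, 0.1) and in limma without a variance trend (0.15, 0.06).

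Ltbp1, which can bind the latent complex of each ligand, was at 1.13 and 1.15 RPKM in Het and at 1.16 RPKM in each Nf1-KO library. Its log2 fold change was -0.04 (95% interval -0.17 to 0.09, limma adjusted p 0.598) and 0.01 as deposited. Ltbp2, which does not bind latent TGF-beta and is known from elastic and ciliary fibres, was listed at 0.02 RPKM in each Het library and at 0.08 and 0.14 RPKM in Nf1-KO. At these levels the 2 decimals of the deposited values are coarse, and Ltbp2 fell below the filter and was not tested. With no filter its log2(RPKM + 1) rose by 0.12 (limma adjusted p 0.077), a scale on which the added 1 outweighs values this low.

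In the authors' deposited table all 10 members were listed, and 6 had an adjusted p under 0.05, 4 higher and 2 lower, where 31.6% of its 13985 genes did. The log2 fold changes there were 0.92 for Tgfbr2 (adjusted p 4.3e-44), -0.74 for Tgfb2 (2.5e-13), 0.29 for Tgfb3 (1.9e-05), -0.38 for Ltbp3 (6.7e-08) and 0.14 for Ltbp4 (0.013). That table rests on the same libraries. The limma values for the same genes, with a pseudocount of 1, were 0.83, -0.58, 0.28, -0.31 and 0.15. The authors' deposited table also called Ltbp2, at a log2 fold change of 2.53 (standard error 0.66, adjusted p 6.9e-04), on a mean normalised count of 24.9. The limma value of 0.12 for Ltbp2 holds the pseudocount of 1, so it is not on the scale of 2.53. Tgfb1, Tgfbr1, Tgfbr3 and Ltbp1 did not pass in the authors' deposited table or in limma.

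**Figure D3:**
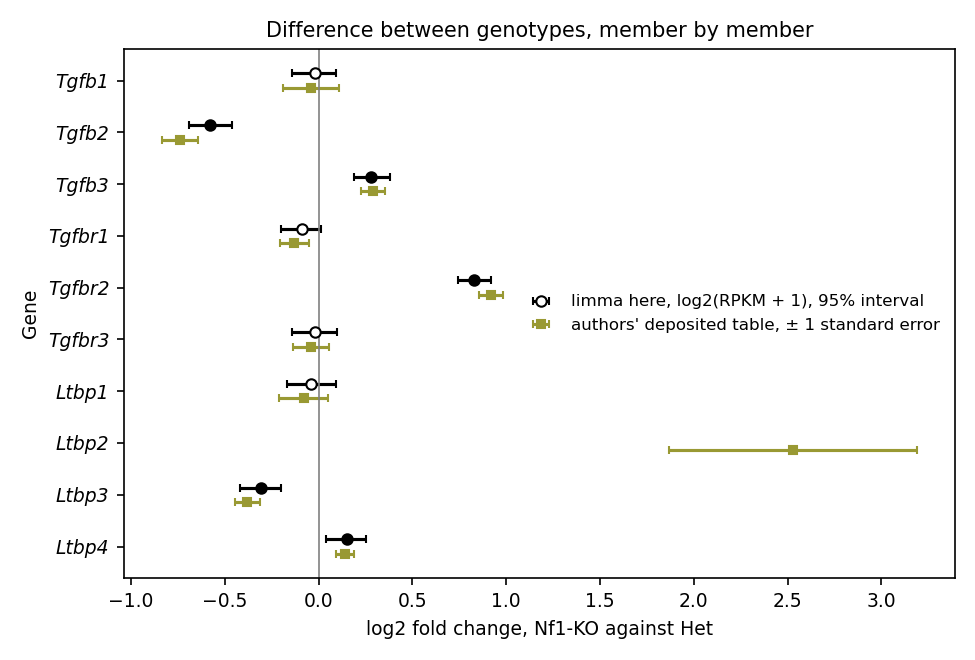
Log2 fold change of Nf1-KO against Het for each member: circles are the limma estimates with their 95% intervals (filled where the adjusted p was under 0.05), and squares are the authors' deposited values with 1 standard error. Tgfbr2 at 0.83 and Tgfb2 at -0.58 lie farthest from 0 among the tested members, and Ltbp2 has only a square, at 2.53.

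The order of the levels also differed between the groups. In Het it ran from Ltbp4 and Tgfb3 through Ltbp3, Tgfbr2, Tgfbr1, Tgfb2, Tgfb1, Tgfbr3 and Ltbp1 to Ltbp2, and neither Ltbp3 and Tgfbr2 nor Tgfbr1 and Tgfb2 were apart beyond the range of their libraries. In Nf1-KO Tgfbr2 stood next after Ltbp4 and Tgfb3, whose ranges overlapped. Tgfb2 dropped below Tgfb1 and Tgfbr3.

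Other genes of the pathway were described from 4 lists, each read against the 50.3% of all tested genes that passed, 24.9% higher and 25.4% lower. The list of latency and activation genes had 15 members, of which 11 were tested, 6 were higher and 2 lower (72.7% called), and the median log2 fold change was 0.16 where that of all tested genes was 0.00. Furin, the protease that cuts the precursors, was at 11.47 and 12.08 RPKM in Het and at 14.64 and 13.71 RPKM in Nf1-KO (log2 fold change 0.16, limma adjusted p 0.028). Itgb3, an integrin chain that can take part in activation, was at 0.13 and 0.12 against 0.65 and 0.56 RPKM (0.49, limma adjusted p 9.0e-04). In Het it was below the filter of 0.5 RPKM, so Itgb3 was tested only through its Nf1-KO level. Lrrc32, which holds latent ligand on the cell surface, rose by 0.21, and the matrix genes Thbs1 and Fn1 by 0.24 and 0.25.

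The integrin chain Itgav went the other way, from 2.65 and 2.74 to 2.19 and 2.42 RPKM (log2 fold change -0.23, limma adjusted p 0.017). It did not pass with values as deposited (-0.16). Itgb6 was at 7.06 and 7.15 against 8.06 and 8.35 RPKM (0.10, 0.077), and Itgb8 and Nrros were at 0.06 RPKM or lower in every library. The count of 8 called genes was fragile: it was 5 with no filter on low values. There 4536 of 18959 genes passed in all, against 5381 of 10690 in the main fit. The list's count was also lower without any 1 of the 4 libraries, as was the number of all genes called.

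Of 10 co-receptors, decoys and matrix binders, 8 were tested and 6 passed (75%, where 50.3% of all tested genes passed and 24.9% were higher), each of them higher, and the median log2 fold change was 0.37. Eng, the co-receptor endoglin of vascular cells, was at 10.75 and 11.17 RPKM in Het and at 18.94 and 18.26 RPKM in Nf1-KO (0.62, limma adjusted p 4.2e-05). Acvrl1, a type I receptor that pairs with endoglin, went from 3.08 and 2.79 to 4.02 and 4.34 RPKM (0.32, 0.0052). The proteoglycans Bgn and Fmod, which bind TGF-beta in the matrix, rose by 0.68 and 0.72. Exons of Eng overlap those of Fpgs on the opposite strand. For each Tgfbr3 there were 3.67 and 3.6 Eng transcripts in Het, per length, and 5.94 and 5.83 in Nf1-KO.

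Of 15 Smads and their regulators, all tested, 7 were lower and 2 higher. The 60% called is near the 50.3% of all tested genes, so the count over both directions is no property of the list. By direction, the 7 lower of 15 stand beside 25.4% of all tested genes, and the 2 higher beside 24.9%. This split was not tested. The median log2 fold change was -0.11. With values as deposited 4 were lower and 3 higher, where 1883 of all 10690 tested genes were lower and 3760 higher. Smad3, which carries the signal of the type I receptor to the nucleus, was at 22.3 and 22.17 RPKM in Het and at 16.4 and 15.91 RPKM in Nf1-KO. The difference was -0.53 on the log2 scale (standard error 0.032, limma adjusted p 4.0e-05). Zfyve9, the adaptor that brings Smads to the receptor, and Map3k7, the TAK1 kinase of the branch outside the Smads, fell by 0.38 and 0.43 on the log2 scale.

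Smad7, an inhibitor of the receptor and a target of the pathway, was at 1.52 and 1.63 RPKM in Het and at 2.43 RPKM in each Nf1-KO library (log2 fold change 0.35, limma adjusted p 0.0024). Smad4, the partner shared with BMP signalling, was lower by a small step (-0.13, 0.018) that did not pass as deposited (-0.04). Smad2 (0.05, adjusted p 0.502) and the BMP inhibitor Smad6 (-0.11, 0.167) did not pass.

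Among 21 genes known to respond to TGF-beta, 14 were higher and 2 lower (76.2% called, where 50.3% of all tested genes were called and 24.9% were higher), and the median log2 fold change was 0.35. Postn went from 1.32 and 1.07 to 9.33 and 9.82 RPKM (log2 fold change 2.20). Timp1, a protease inhibitor, went from 0.12 and 0.17 to 1.67 and 1.93 RPKM (1.25, limma adjusted p 2.8e-05). In Het it was below the filter of 0.5 RPKM, so Timp1 was tested only through its Nf1-KO level. The collagen gene Col1a1 rose by 1.57. The lower genes were Pmepa1 (-0.32) and Tagln (-0.16, not called with values as deposited), named after their values were seen. These genes answer to other signals as well, and 3 of them (Smad7, Skil and Pmepa1) are also among the 15 Smad genes, with Fn1 and Itgb5 shared with the latency list.

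**Figure D4:**
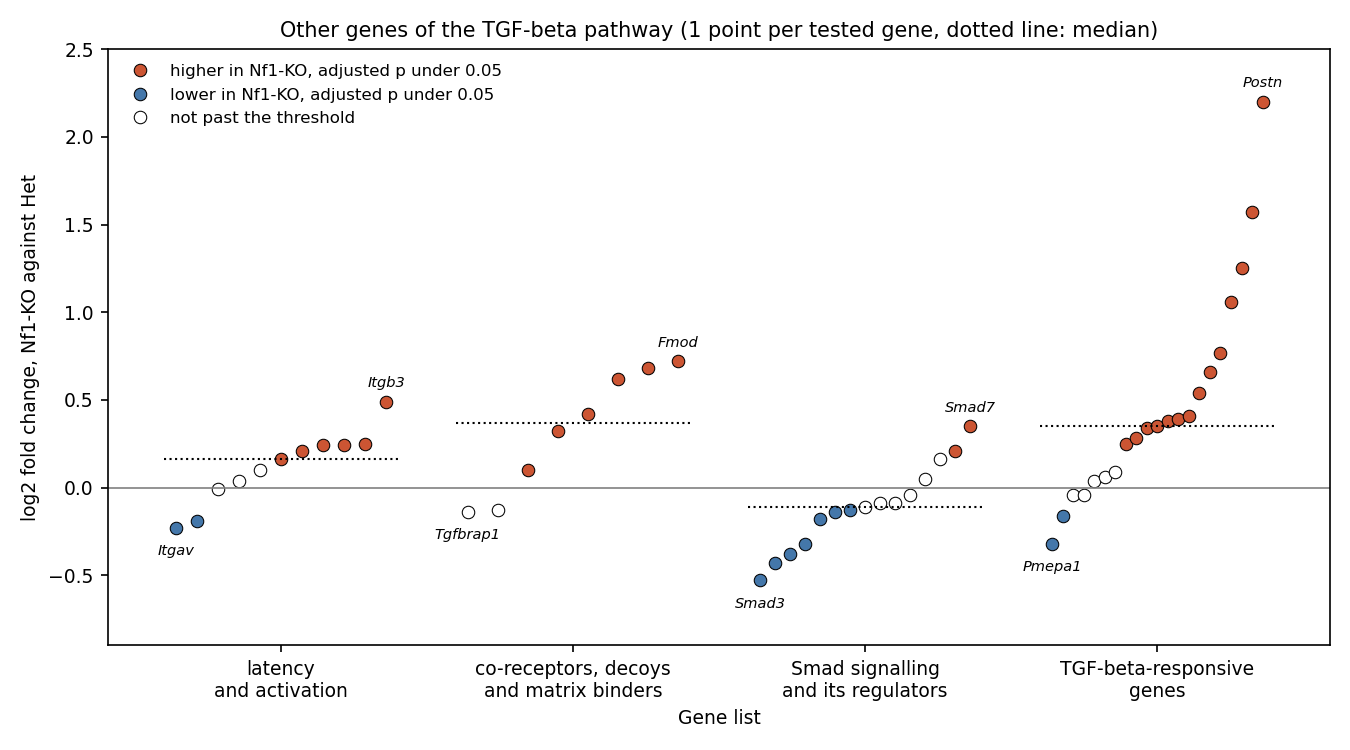
Log2 fold change of Nf1-KO against Het for each tested gene of the 4 pathway lists (1 point per gene, dotted line the median), coloured by whether the adjusted p was under 0.05 and in which direction. The medians are 0.16, 0.37, -0.11 and 0.35, and the highest and lowest gene of each list is named.

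The members are made by several cell types of muscle, so markers of these were read beside them. Sums are of RPKM as deposited, not scaled between libraries. Calls in these short lists are set beside the 50.3% of all tested genes that passed, 24.9% higher and 25.4% lower. Tgfbr2 and Eng are known to be abundant in endothelial cells. The 8 endothelial markers summed to 99.4 and 99.7 RPKM in Het and to 107 and 106 RPKM in Nf1-KO. Of these, 3 were called higher and 2 lower (62.5% called), and after scaling their median log2 fold change was -0.01. Pecam1 was at 25.11 and 24.74 against 28.62 and 28.05 RPKM, and Cdh5 at 29.59 and 29.79 against 31.93 and 31.52 RPKM (log2 fold change 0.00). Pericyte and smooth muscle markers summed to 118 and 120 against 141 and 139 RPKM over 8 genes. Of these, 3 were higher and 1 lower (50% called), and after scaling the median log2 fold change was 0.07. Most of the gain in the sum was Rgs5, with means of 53.3 and 70.9 RPKM. Rgs5 rose by 0.31 on the log2 scale, and Pdgfrb had a log2 fold change of 0.03 (limma adjusted p 0.566).

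Fibroblast markers summed to 167 and 163 RPKM in Het and to 189 and 184 RPKM in Nf1-KO over 10 genes. Of 9 tested, 4 were higher and 1 lower (55.6% called, near the 50.3% of all tested genes). After scaling the median log2 fold change was 0.08. The largest gains within the sum were those of Gsn, with means of 66 and 80.7 RPKM, and Dcn, with means of 54 and 62 RPKM. Gsn was named after its value was seen. The lower gene was Cd34, at 14.57 and 13.88 against 9.57 and 9.45 RPKM (log2 fold change -0.62, limma adjusted p 4.4e-05). It was named after its value was seen. Pdgfra was at 0.89 and 0.85 against 1.42 and 1.52 RPKM, and Dcn, which is also among the matrix binders, rose by 0.10. Of the macrophage and leukocyte markers, 5 of 7 tested passed (71.4%, where 50.3% of all tested genes passed), each higher. Their sum over 10 genes differed more, at 14.9 and 14.6 against 36.6 and 36.8 RPKM. Most of that gain was Lyz2, a lysozyme gene, with means of 7.42 and 24.5 RPKM, while Mrc1 (log2 fold change 0.01, limma adjusted p 0.946) and Cd163 (-0.00, 0.982) did not pass; these 3 were named after their values were seen. Ptprc was at 0.16 and 0.17 against 0.24 and 0.29 RPKM, Cd68 rose by 0.60, and Emr1 was listed at 0 in every library.

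Tendon markers summed to 16.4 and 16.1 against 13.5 and 13 RPKM over 7 genes. All 3 tested passed, 1 higher and 2 lower, where 50.3% of all tested genes passed. Scx fell by 0.45 on the log2 scale, and Tnmd was at 0.51 RPKM or lower. The other lower gene was Thbs4, with means of 9.71 RPKM in Het and 4.44 RPKM in Nf1-KO. The higher gene was Fmod, also among the matrix binders, with means of 2.94 and 5.83 RPKM. The tendon sum thus does not describe the class. Thbs4 and Fmod were named here after their values were seen. Satellite cell markers stood at 8.48 and 8.41 against 9.95 and 9.7 RPKM over 6 genes (2 higher of 4 tested, 50%). The 2 were Vcam1 and Chrdl2, named after their values were seen. Chrdl2 was at 0.27 and 0.43 RPKM in Het, below the filter of 0.5 RPKM, so it was tested only through its Nf1-KO level. Pax7 and Cdh15 did not pass (adjusted p 0.093 and 0.699). Adipocyte markers summed to 178 and 185 against 268 and 266 RPKM over 5 genes (2 higher of 3 tested, 66.7%). Nearly all of that sum was Fabp4, a fatty acid carrier, with means of 173 and 248 RPKM, so the sum does not describe the class. The other gene called higher was Cfd, at 5.87 and 6.8 against 17.34 and 17.71 RPKM (log2 fold change 1.25, limma adjusted p 1.9e-05). Adipoq (-0.19, limma adjusted p 0.057) did not pass. Plin1 was at 0.41 RPKM or lower, Lep had means of 0.215 and 0.04 RPKM, and neither was tested. Fabp4, Cfd and Lep were named after their values were seen. The globin genes Hba-a2, Hbb-b1 and Hbb-b2 were listed at 0 in every library, and Hba-a1 in 3 of 4. The part of these cell types in the levels of the TGF-beta family was not tested.

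The genes whose pattern over the 4 libraries was nearest to that of a ligand, among genes from 0.5 to 2 times its level, were Cog8 and Tra2a for Tgfb1, Zfp367 and Cnnm4 for Tgfb2, and Rpl37rt and Rab9 for Tgfb3. The distances between centred log2 profiles were 0.01 and 0.011, 0.034 and 0.038, and 0.017 and 0.026. Zfp367 was at 5.72 and 5.79 RPKM in Het and at 3.66 and 3.87 RPKM in Nf1-KO. With 4 libraries in 2 groups many genes lie almost as near: 18 of 3840 candidates were within 2 times the distance of Zfp367.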

How the data were processed

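Total RNA of 4 tibialis anterior libraries was measured by RNA sequencing with a TruSeq kit, per the labels' protocols. The submitters' processing notes name STAR 2.4.2a, DESeq2 and mouse build mm9. The counting program, annotation and use of strand are not given in the sources used here. The authors deposited 1 RPKM value per gene and library, rounded to 2 decimals; the unit was read from the values, as the deposited mean count divided by RPKM rose with transcript length with a log-log slope of 0.95 over 4554 genes. The authors also deposited a comparison table that holds, per the file headers, a signal (mean normalised count), a log2 fold change with its standard error, a test score, and p-values with their adjustment. Its direction was read from the libraries' values.

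Of the deposited rows, 33 carried only a number as their name and were dropped; where a gene had further copies (1781 rows), its highest row was kept. Libraries were scaled by trimmed mean log ratios, leaving out 30% of ratios and 5% of abundances at either end (factors 0.968, 0.967, 1.03 and 1.03). Genes with at least 0.5 RPKM in 2 libraries were tested with limma 3.58.1 (R 4.3.3), two-sided and with a trended variance, on log2(RPKM + 1), with Benjamini-Hochberg adjustment over all tested genes and a threshold of 0.05. Fold changes on this scale understate those of low genes. Means and SD are of the values as deposited. The fit was tested on simulated data. All members are named. Of each pathway list, the text names the 3 largest changes, the Smads, Eng, Acvrl1 and the activators, and of each marker list the first 2 genes; the Schwann cell list is not reported here. The members and lists were chosen with earlier results of these data known. Positions are those of GENCODE M21 (GRCm38), which is not the authors' build.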

Additional observations from a re-analysis of the deposited data

How the results depend on the processing

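Over 14 alternative settings, 203 of 216 alternative values were counted as the same. For a gene this meant the same call, with direction compared only where the main fit called it. Counts and shares had to stay within 1.5 times or within the replicate spread, so a fall from 3 to 2 members called higher was counted as the same. Some values could not differ. An uncalled gene stays uncalled at an adjusted p under 0.01. Ligand shares were taken as deposited in the main setting too. Each member had a single row, so summing copies left its level unchanged. The uncalled Tgfb1 (-0.05 to 0.05), Tgfbr3 (-0.06 to 0.05) and Ltbp1 (-0.06 to 0.01) changed sign in some settings. Tgfb2 (-0.71 to -0.50), Tgfb3 (0.24 to 0.37), Tgfbr2 (0.82 to 0.92) and Ltbp3 (-0.36 to -0.23) kept their calls in all 14, and Ltbp4 (0.11 to 0.24) in 8. Their highest adjusted p were 0.0049, 0.017, 0.0011, 0.019 and 0.151. At an adjusted p under 0.01 Ltbp4 (0.15) was not called. The 8 latency and activation genes called became 5 with no filter on low values, 5 with 1 RPKM asked in every library, 3 at an adjusted p under 0.01, and 4 to 4 when each library was left out. The cause was not tested. When a library was left out, the lone one of its group was assumed to vary like the others, and 2 to 3 members were called higher and 2 to 2 lower. With the replicate block 3 members were higher and 2 lower and 5343 genes were called in all. Labels give no pairing, and same-numbered libraries deviated with a correlation of -0.018 across genes. Ltbp2 could be fitted only with no filter. Low levels limit what can be said of Ltbp2, Itgb8, Nrros and Ptprc.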
